A study of Amphimedon queenslandica with 43 samples.

Results

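The 92 transcript models described here were lower at 9 than at 1 hour post emergence (hpe) in larvae of the sponge Amphimedon queenslandica kept under a natural day-night regime, by their group medians, and not, or less so, in either constant regime. They were chosen by that pattern from 47411 models in the deposited count table. Levels are counts per 1000000 counts of the larva (CPM). The age change of a regime is the log2 ratio of its median CPM at 9 hpe to its median CPM at 1 hpe, each with 1 CPM added. A member has an age change of -0.8 or lower in day-night larvae and above -0.4 in both constant light and constant dark. It also has a group median of at least 20 CPM, a count in all 21 larvae at 1 hpe, a mean count below 2500 and an identifier that starts with Aqu2.1.

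The larvae were single animals, each sequenced by itself with CEL-Seq2, a protocol that counts the 3' ends of polyadenylated transcripts. The constant-light group stood under a full-spectrum fluorescent tube (7 larvae at 9 hpe and 7 at 1 hpe), and the constant-dark group under a neutral density filter that let 6.6% of the daylight through (7 and 7), so that it was dim and not fully dark. The day-night group stood in natural light (8 at 9 hpe and 7 at 1 hpe). All larvae were collected within 30 minutes from 11 am and were in their regime by 0.5 hpe, so age at sampling and time of day cannot be told apart. Parentage and library batch are not in the labels, and a p-value here reflects only how these 43 larvae varied.

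Amphimedon larvae are ciliated swimmers with no neurons and no muscle, and they steer by a ring of pigmented cells at the posterior end whose long cilia respond to light. After release they pass through a phase in which they cannot yet settle, become competent, and then attach and metamorphose when they meet suitable cues such as those of coralline algae. Cryptochromes, blue-light receptor proteins, are expressed around the pigment ring, and the labels place 1 hpe before competence and 9 hpe at competence. The deposited table does not pair its identifiers with gene names, and 0 of the 92 members matched the RefSeq gene table for this species, so no function and no sequence is given for any of them. In whole larvae, fewer cells that hold a transcript and less of it per cell cannot be told apart.

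Total counts per larva ran from 1890954 to 3927366. On the second principal component of log2 CPM, 8 larvae stood apart at or below -38.9, with all others at or above -12.1. They were 4 constant-light larvae at 9 hpe, 1 constant-light larva at 1 hpe and 3 constant-dark larvae at 1 hpe, and 0 were day-night larvae. Counts of members that changed by over 1.5 times without these larvae are given with both values. Leaving them out also makes their groups smaller, so a lower count can reflect fewer larvae as well as these larvae. Which of these applied was not tested. Other larvae stood apart at the upper end of this component, from 29.4 to 44.0, with the next larva at 15.3. They included day-night replicates 1 and 5 at 9 hpe and 4 and 6 at 1 hpe. Leaving this upper set out was not tried. The 8 larvae that stood apart are, from here on, those at the lower end.

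The rule narrowed the table in steps. Of 44016 Aqu2.1 models, 7196 met the conditions on level and count, and 529 of these had an age change of -0.8 or lower in day-night larvae. The constant-light condition was met by 253 of the 529, the constant-dark condition by 169, and both by the 92 members, which are 17.4% of the 529. The same rule with the regimes exchanged gave 92 models that were lower at 9 hpe in constant light alone and 101 in constant dark alone, so as many or more models met the mirrored rules. The members closest to the day-night threshold had an age change of -0.807, -0.804 and -0.803, and the nearest models outside it -0.797, -0.793 and -0.792. At the constant-light threshold the nearest members had -0.396, -0.367 and -0.354 and the nearest models outside -0.419, -0.403 and -0.402. At the constant-dark threshold the nearest members had -0.395, -0.379 and -0.379 and the nearest outside -0.431, -0.413 and -0.407.

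**Figure D1:**
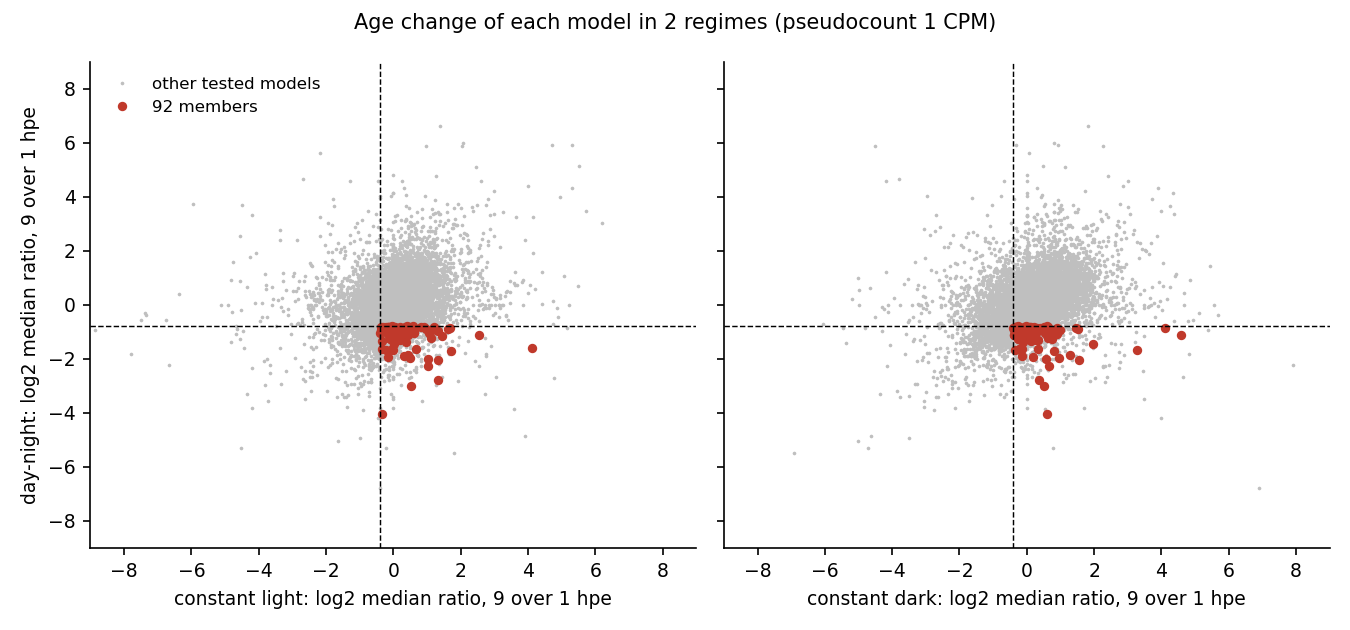
Age change of each tested model in day-night larvae (vertical axis, log2 of the median ratio of 9 over 1 hpe) against that in constant light (left) or constant dark (right), with members in red, other tested models in grey and the thresholds at -0.8 and -0.4 dashed. Members fill the lower right corner by the rule, with day-night values down to -4.04 and constant-regime values up to 4.11 and 4.58.

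Over the members, the age change ran from -0.40 to 4.11 in constant light with a median of 0.10, and from -0.40 to 4.58 in constant dark with a median of 0.11. In day-night larvae it ran from -4.04 to -0.80 with a median of -1.03. Over the 14188 models that could be tested, the medians were 0.10 in constant light, 0.24 in constant dark and 0.18 in day-night. These values were used by the rule and describe the choice. Scaled by TMM factors in place of column totals, the members' medians were -0.00 in constant light, -0.17 in constant dark and -1.18 in day-night, and those of all tested models 0.00, 0.01 and 0.02, so that the sign in both constant regimes turned with the scaling. Within the bounds that the rule left free, 62 members stayed within 0.4 of 0 in constant light, 61 in constant dark, and 50 in both. An age change of 0.8 or higher was found for 18 members in constant light, 13 in constant dark and 4 in both. By their medians on the CPM scale, most members thus stayed within 0.4 in each constant regime.

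Since the rule used these levels, the share of all counts that the members took up is also a description, here larva by larva. It was smaller in day-night larvae at 9 hpe than in any other group. They made up 0.836 ± 0.0965% of counts in constant light at 9 hpe (SD, n = 7) and 0.788 ± 0.0555% at 1 hpe (n = 7). In constant dark they made up 0.779 ± 0.0674% at 9 hpe (n = 7) and 0.772 ± 0.0982% at 1 hpe (n = 7). In day-night larvae they made up 0.538 ± 0.0838% at 9 hpe (n = 8) and 0.938 ± 0.108% at 1 hpe (n = 7). The highest day-night larva at 9 hpe, at 0.663%, lay below the lowest larva of every other group, the nearest of which was a constant-light larva at 9 hpe with 0.679%. At 1 hpe the day-night larvae ran from 0.757 to 1.05% and overlapped both constant regimes.

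**Figure D2:**
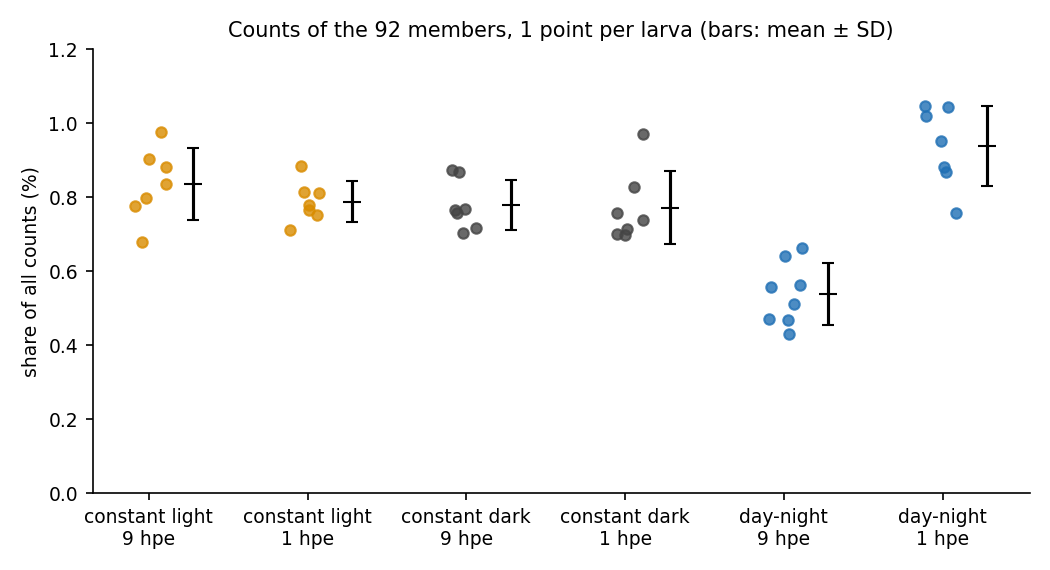
Share of all counts taken by the 92 members (percent), 1 point per larva, with mean ± SD beside the points, for constant light, constant dark and day-night, each with 9 hpe left of 1 hpe. The 8 day-night larvae at 9 hpe sit between 0.429 and 0.663% and the 7 day-night larvae at 1 hpe between 0.757 and 1.05%, and the larvae of the constant regimes between 0.679 and 0.976%.

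The low level at 9 hpe was found in all 8 day-night larvae. Each of them had between 77 and 87 of the 92 members below the day-night median at 1 hpe, with a median of 79.5. Of all tested models, 38.4 to 49.6% lay below that median in the same larvae. In constant light, each larva at 9 hpe had 35 to 54 members below its own regime's median at 1 hpe, and in constant dark 38 to 55. Counted by member, all 8 day-night larvae at 9 hpe lay below the median at 1 hpe for 40 members, 7 larvae did for 20, 6 for 22 and 5 for 10. Since the rule used the medians of these groups, at least 4 larvae below had to be found for each member.

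With edgeR's quasi-likelihood test over all 14188 models, 44 of the 92 members were lower at 9 than at 1 hpe in day-night larvae (adjusted p below 0.05) and 0 were higher, where 12.1% of all tested models were called lower and 9.94% higher. This comparison was used by the rule, so the count is given as a description only. The fit compares means and the rule medians. The fitted log2 change was below 0 for 90 members and above 0 for 2, which are named here after their values were seen. For Aqu2.1.08623_001 it was 0.30, with a median-based change of -1.09. For Aqu2.1.22338_001 the fitted change was 1.27 and the median-based one -1.98. Its day-night larvae ran from 0.529 to 1197 CPM (median 21.8) at 9 hpe and from 32.2 to 337 CPM (median 88.9) at 1 hpe. At 9 hpe 3 larvae held 527 CPM or more and 5 held 27.97 CPM or less, so that the mean was above and the median below that at 1 hpe.

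In the constant regimes the members' calls are likewise a description. In constant light 0 of the 92 members were called in either direction, where 6.11% of all tested models were, and an unadjusted p below 0.05 was found for 5 members, 5.43% of them, and 19.5% of all tested models. DESeq2 and limma voom also called 0 there. In constant dark 7 members were called lower and 1 higher at 9 hpe, where 10.6% of all tested models were called lower and 9.39% higher. The share of members called lower, 7 of 92, was thus near that of all models. Without the 8 larvae that stood apart, 4 members were called there in place of 8. The median fitted change over the members was -0.02 in constant light and -0.18 in constant dark, against -1.08 in day-night larvae.

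The 92 members did not form 1 kind of profile. For 19 members the highest larva was less than 4-fold above the lowest in every group, with 1 CPM added. For 49 members it was at least 10-fold above the lowest in 1 or more groups, and 24 members lay in between. All 19 members with a narrow spread were among the 44 called lower in day-night larvae at 9 hpe. So were 18 of the 24 in between and 7 of the 49 with a wide spread. Every member was chosen for a lower day-night median at 9 hpe, so a narrow spread by itself favours a call. These counts describe the choice, and the share over all tested models of like spread was not taken. The narrow members had day-night age changes from -1.21 to -0.81, and the wide ones from -4.04 to -0.80. All 10 members with the lowest day-night age change had a wide spread, and 2 of those 10 were called. The lowest values of the list thus stood in members whose larvae differed widely within a group.

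The spread was also set beside that of the other models. The SD within groups of log2(CPM + 1) had a median of 0.89 over the members, from 0.22 to 2.52, and 0.58 over all tested models. The gap was also seen at like levels. Within the interquartile range of the members' mean CPM (19.6 to 99.7), the 46 members had a median SD of 0.96 and all 4416 tested models in that range 0.45. The 92 models lower in constant light alone had a median SD of 1.08, and the 101 lower in constant dark alone also 1.08. The part of this spread in the choice by medians of 7 or 8 larvae was not tested.

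**Figure D3:**
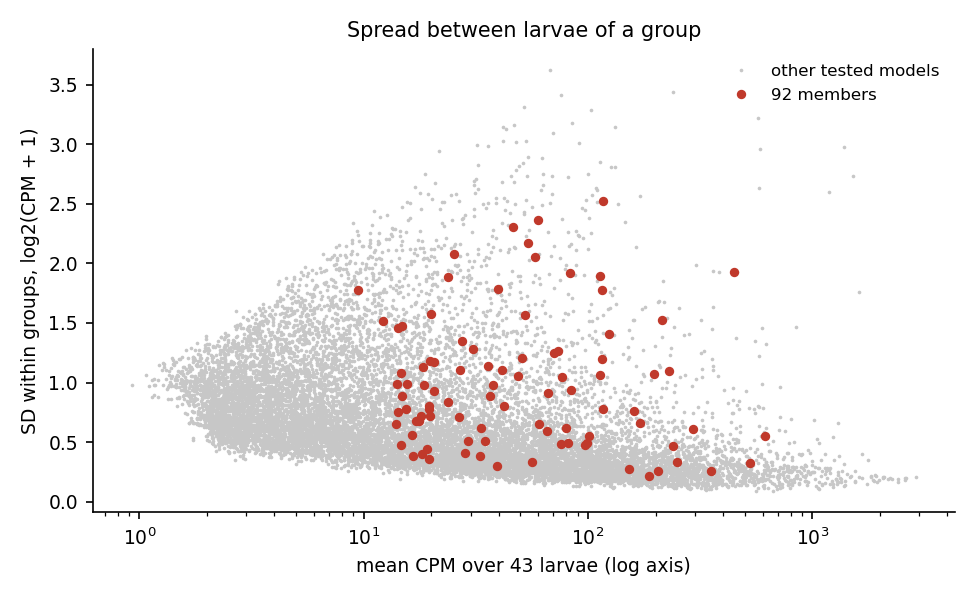
SD of log2(CPM + 1) within groups (vertical axis) against mean CPM over 43 larvae (log axis), with members in red and other tested models in grey. Members reach from the lower edge of the cloud, at an SD of 0.22, to values far above it, up to 2.52.

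Of the narrow members, Aqu2.1.28793_001 had the widest gap between the ages in day-night larvae. At 9 hpe it ran from 147 to 268 CPM (median 216) in constant light, 136 to 235 CPM (median 185) in constant dark, and 107 to 186 CPM (median 147) in day-night. The larvae at 1 hpe ran from 196 to 238 CPM (median 200) in constant light, 133 to 237 CPM (median 196) in constant dark, and 255 to 386 CPM (median 279) in day-night. All 8 day-night larvae at 9 hpe lay below all 7 at 1 hpe, by 0.45 on the log2 scale. Every day-night larva at 1 hpe lay above every larva of both constant regimes at that age, while at 9 hpe the groups overlapped. The day-night level of this member was thus the highest of the regimes at the first age and the lowest by its median at the second.

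Aqu2.1.40875_001 had the second widest gap, 0.25 on the log2 scale, and a different course. At 9 hpe it ran from 42.02 to 65.4 CPM (median 59.7) in constant light, 45.1 to 102 CPM (median 65.3) in constant dark, and 20.6 to 45.7 CPM (median 31.02) in day-night. Values at 1 hpe ran from 41.9 to 83.1 CPM (median 56.8) in constant light, 51.2 to 70.4 CPM (median 56.9) in constant dark, and 54.6 to 91.4 CPM (median 59.6) in day-night. The 3 regimes overlapped at 1 hpe, with medians close to each other, and day-night stood lowest at 9 hpe. Groups that do not overlap were found between the ages in day-night larvae for 8 of the 92 members, all lower at 9 hpe, where 1.97% of all tested models had them and 4.04% had them in the other direction. The rule used these values and fixed the direction, so this count describes the choice. In constant light and in constant dark 0 members had groups that do not overlap. Among all tested models, 0.733% did in constant light with 9 hpe lower and 1.59% with 9 hpe higher, and 1.64% and 5.72% did so in constant dark.

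The 2 members with the highest mean CPM had day-night age changes of -0.96 and -0.84. Aqu2.1.38385_001 had 401 to 975 CPM (median 576) in constant light at 9 hpe, 344 to 647 CPM (median 500) in constant dark, and 214 to 389 CPM (median 313) in day-night. At 1 hpe it had 482 to 604 CPM (median 586) in constant light, 469 to 881 CPM (median 624) in constant dark, and 366 to 711 CPM (median 611) in day-night. Only the lowest day-night larva at 1 hpe reached into the day-night range at 9 hpe. It was also 1 of the 7 members called lower with age in constant dark. Aqu2.1.27275_001 had a day-night median of 383 CPM at 9 hpe and 689 CPM at 1 hpe, with ranges of 269 to 728 and 360 to 1199 CPM that overlapped widely. Its medians in the constant regimes were also lower at 9 hpe, at 458 CPM against 591 CPM in constant light and at 648 CPM against 779 CPM in constant dark, inside the limit of the rule.

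In the members with the lowest age change, larvae fell into a high and a low set. Aqu2.1.41885_001 had the lowest value of all, -4.04. Its 8 day-night larvae at 9 hpe held 22.7 and 15.1 CPM in 2 animals and at most 2.38 CPM in the other 6, against 30.6 to 38.8 CPM in 4 animals and at most 1.92 CPM in the other 3 at 1 hpe. High larvae were found in other groups too, with 2 above 15 CPM in constant dark at 9 hpe, 1 in constant light at 1 hpe and 2 in constant dark at 1 hpe, and 0 in constant light at 9 hpe. A median lies in the low set wherever most larvae do. A high and a low set were also seen for Aqu2.1.00752_001, with an age change of -3.02 in day-night larvae. There 5 of 8 larvae at 9 hpe held 23.04 CPM or less and 3 held 145 CPM or more, against 82.4 to 506 CPM in all 7 larvae at 1 hpe. In constant light it ran from 149 to 607 CPM (median 263) at 9 hpe and 19.8 to 581 CPM (median 181) at 1 hpe, and in constant dark 25.5 to 458 CPM (median 189) at 9 hpe and 16.8 to 531 CPM (median 133) at 1 hpe. Neither model was among the 44.

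**Figure D4:**
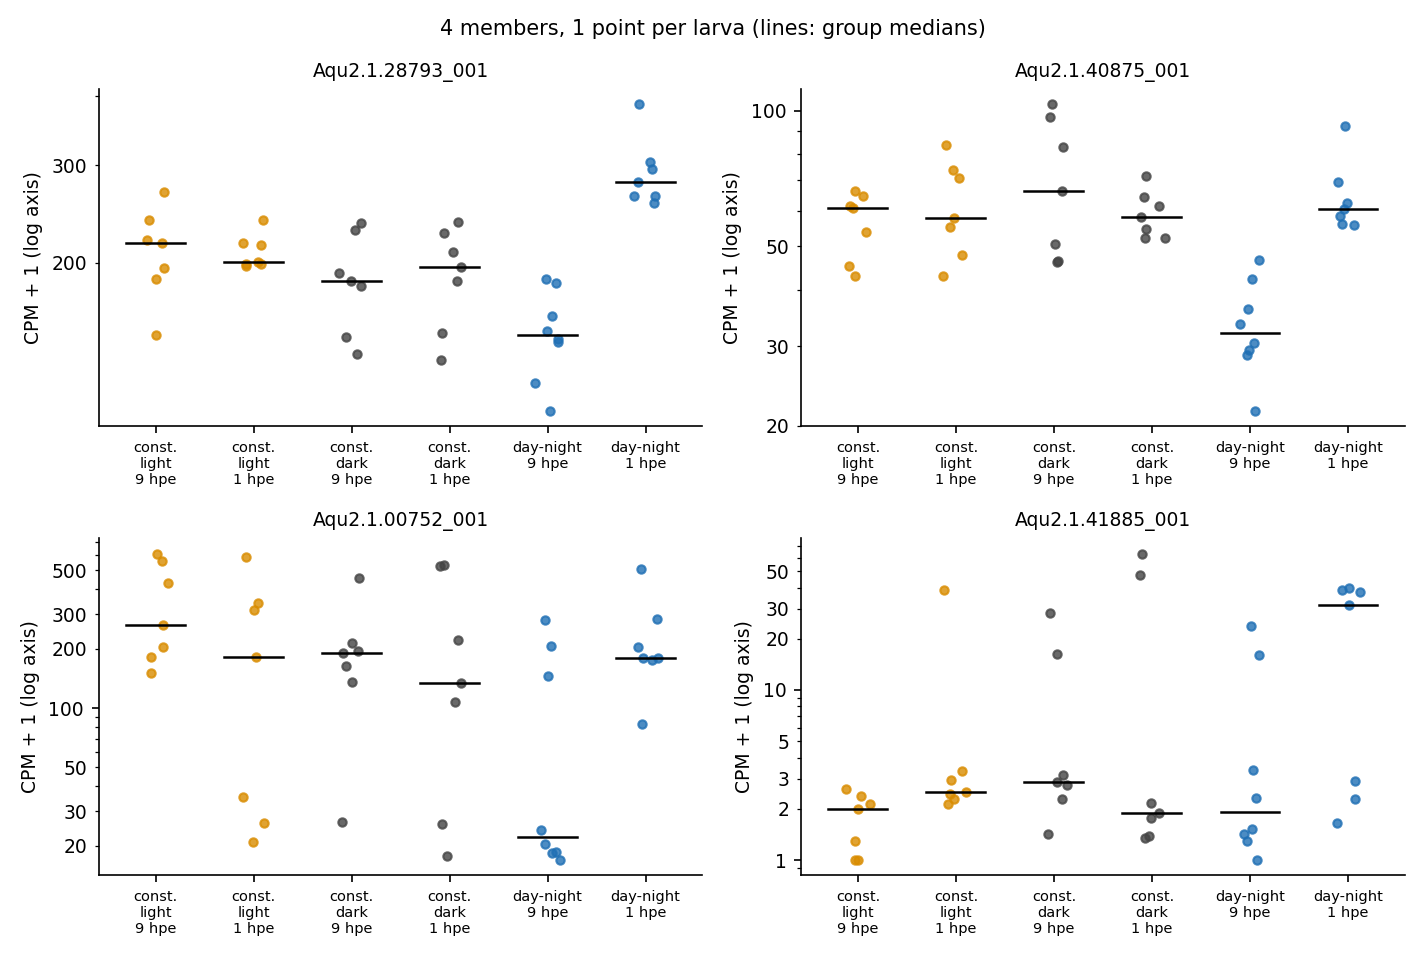
CPM + 1 (log axis) of 4 members in every larva, with lines at the group medians, for constant light, constant dark and day-night, each with 9 hpe left of 1 hpe. Aqu2.1.28793_001 and Aqu2.1.40875_001 (upper row) have narrow groups that separate by age in day-night larvae, and Aqu2.1.00752_001 and Aqu2.1.41885_001 (lower row) have larvae in a high and a low set within several groups.

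A lower day-night level at 9 hpe and a higher one at 1 hpe could both give the pattern. The rule used these medians and favours both, so the counts that follow describe the choice. The share of these counts over all tested models was not taken. At 9 hpe the day-night median was the lowest of the 3 regimes for 80 members and the highest for 3. At 1 hpe it was the highest for 69 members and the lowest for 4. Lowest at 9 hpe and highest at 1 hpe held together for 57 members. Relative to day-night, the members' levels differed by a median of 0.81 in constant light and 0.71 in constant dark at 9 hpe (log2 of group medians), and by -0.48 in constant light and -0.48 in constant dark at 1 hpe. Over all tested models these medians were -0.01 and 0.07 at 9 hpe and 0.06 and 0 at 1 hpe. The rule sets a lower limit on the sum of both parts. Its condition of a group median of at least 20 CPM can be met by day-night at 1 hpe alone. Aqu2.1.41885_001 had a median of 30.6 CPM there and at most 1.88 CPM in every other group. The rule can thus favour a high day-night level at 1 hpe, and the division between both parts is not free of it. Aqu2.1.32210_001 and Aqu2.1.39233_001, named after their values were seen, also met the 20 CPM condition by day-night at 1 hpe alone. Their medians were 43.5 and 30.8 CPM in that group and at most 10.7 and 18.6 CPM in every other group. The full number of such members was not counted.

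**Figure D5:**
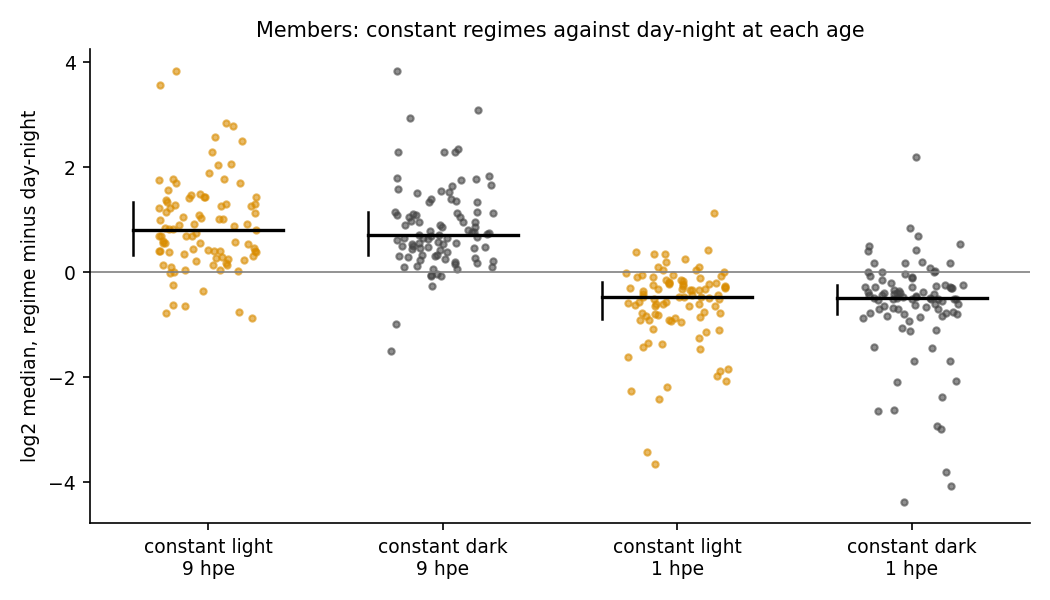
Log2 median level of each member in constant light or constant dark minus that in day-night larvae, at 9 hpe (left) and 1 hpe (right), with the median over the 92 members as a horizontal line and their interquartile range as a vertical line. Medians lie at 0.81 and 0.71 at 9 hpe and at -0.48 and -0.48 at 1 hpe.

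Taking larger steps, 32 members stood at least 0.8 below the lower of the constant regimes at 9 hpe, and 12 stood at least 0.8 above the higher one at 1 hpe. The counts of such steps also describe the choice, with no share over all tested models taken. For 21 members the day-night median at 1 hpe lay within 0.4 of both constant regimes, and for 10 members the median at 9 hpe did. The lowest value relative to the constant regimes at 9 hpe was that of Aqu2.1.07497_001. It had 21.2 to 217 CPM (median 132) in constant light, 1.32 to 179 CPM (median 131) in constant dark, and 0.476 to 140 CPM (median 8.29) in day-night, where 3 larvae held 99.3 CPM or more and 5 held 9.14 CPM or less. At 1 hpe it had 6.38 to 126 CPM (median 52.0) in constant light, 12.5 to 191 CPM (median 102) in constant dark, and 1.64 to 95.6 CPM (median 62.5) in day-night. At 1 hpe the members furthest above the constant regimes were Aqu2.1.41885_001, described above, and Aqu2.1.40933_001. Aqu2.1.40933_001 had 0.284 to 49.0 CPM (median 2.15) in constant light, 0.986 to 32.99 CPM (median 3.42) in constant dark, and 0.320 to 42.5 CPM (median 32.7) in day-night. At 9 hpe it had 13.2 to 102 CPM (median 53.3) in constant light, 0.861 to 77.2 CPM (median 2.95) in constant dark, and 0.697 to 15.3 CPM (median 10.1) in day-night, so its median there was higher in day-night than in constant dark.

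The fit called fewer of these differences between regimes at a single age, and since the rule used the same medians the counts are again a description. At 9 hpe 17 members were higher in constant light than in day-night and 0 lower, where 2.88% of all tested models were higher and 1.97% lower. Without the 8 larvae that stood apart, which include most constant-light larvae at 9 hpe, the count was 7. In constant dark 5 members were higher than in day-night at 9 hpe and 0 lower, where 0.31% of all tested models were higher and 1.4% lower. The 5 were Aqu2.1.25608_001, Aqu2.1.38385_001, Aqu2.1.40875_001, Aqu2.1.25383_001 and Aqu2.1.36255_001, the last pair named after their values were seen. They became 2 with limma voom, 2 with no filter on low counts and 3 with the replicate number as a block.

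At 1 hpe 2 members were lower in constant light than in day-night and 0 were higher. Of all tested models, 0.733% were lower and 0.141% higher. The 2 members were Aqu2.1.25383_001 and, also named after its values were seen, Aqu2.1.39233_001. As stated above, Aqu2.1.39233_001 met the rule's condition on group medians by day-night at 1 hpe alone. Its call thus rests on the same high level that admitted it to the list. The rule can favour such calls, so the counts against day-night at 1 hpe describe the choice. Between constant dark and day-night 0 members differed at 1 hpe, where 0.0141% of all tested models did. Against day-night at 1 hpe, DESeq2 called 9 members in constant light, where it called 2.45% of all tested models, and 2 in constant dark, where it called 0.211%. An unadjusted p below 0.05 in edgeR was found in constant light for 23 members, 25% of them, and 13.6% of all tested models. In constant dark it was found for 14 members, 15.2% of them, and 8.25% of all. The rule used the age changes and set the direction of their difference by medians, so the counts that follow describe the choice. The change with age differed between constant light and day-night for 14 members, all more positive in constant light. Of all tested models, 1.56% were called in that direction and 1.04% in the other. The 14 became 6 with no filter on low counts, 7 with the replicate number as a block and 23 with DESeq2, which called 4.67% of all models it gave an adjusted p. It differed between constant dark and day-night for 4 members, all more positive in constant dark, where 0.155% of all tested models were called in that direction and 0.782% in the other. These 4 were Aqu2.1.25608_001, Aqu2.1.40875_001, Aqu2.1.28793_001 and Aqu2.1.25383_001. Without the 8 larvae that stood apart the counts were 5 and 1. For most of the 92 members the difference in age change that placed them in the list was thus not called by the fit.

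Aqu2.1.25383_001, which also had the lowest SD within groups of all members (0.22), shows what such a member looks like in single larvae. At 9 hpe it ran from 145 to 220 CPM (median 172) in constant light, 198 to 281 CPM (median 212) in constant dark, and 98.1 to 164 CPM (median 130) in day-night. At 1 hpe it ran from 143 to 188 CPM (median 157) in constant light, 171 to 244 CPM (median 212) in constant dark, and 169 to 269 CPM (median 244) in day-night. At 9 hpe all day-night larvae lay below all constant-dark larvae, and at 1 hpe these regimes overlapped. The constant-light larvae lay between the other regimes by their median at 9 hpe and lowest at 1 hpe.

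Constant light and constant dark were also compared with each other at each age, a difference for which the rule sets no direction. At 9 hpe 0 of the 92 members were called (edgeR, lowest adjusted p = 0.17), where 0.818% of all tested models were, and at 1 hpe 0 were called (lowest adjusted p = 0.164), where 0.148% were. DESeq2 and limma voom called 0 at both ages. An unadjusted p below 0.05 was found for 12 members at 9 hpe, 13.04% of them, and 12.3% of all tested models, and for 10 members at 1 hpe, 10.9% of them, and 11.9% of all. The lowest adjusted p at 1 hpe was that of Aqu2.1.25383_001, with 163 ± 18.4 CPM for constant light and 209 ± 23.5 CPM for constant dark (SD, n = 7 each) and an edgeR log2 difference of -0.42 ± 0.12 SE. Over all members the median fitted difference of constant light from constant dark was 0.14 at 9 hpe and -0.04 at 1 hpe.

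That no member was called does not show that the constant regimes were alike. The half-width of a 95% interval of the fitted difference had a median of 0.91 at both ages on the log2 scale. The interval lay inside a 2-fold difference in either direction for 26 members at 9 hpe and 29 at 1 hpe. For Aqu2.1.28793_001 the difference of constant light from constant dark was 0.26 ± 0.15 SE at 9 hpe (edgeR adjusted p = 0.503), where constant-light larvae had 210 ± 38.8 CPM and constant-dark larvae 186 ± 37.3 CPM (SD, n = 7 each). At 1 hpe it was 0.07 ± 0.15 SE (edgeR adjusted p = 0.905). For Aqu2.1.40875_001 it was -0.24 ± 0.19 SE at 9 hpe (edgeR adjusted p = 0.662) and 0.01 ± 0.19 SE at 1 hpe (edgeR adjusted p = 0.998). For Aqu2.1.00752_001 it was 0.89 ± 0.73 SE at 9 hpe (edgeR adjusted p = 0.676), with the largest error of these 3 members.

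Pairs of members correlated from larva to larva about as pairs of any tested models did. For each pair the deviations of log2(CPM + 1) from the group means were correlated over the 43 larvae. Over 4186 pairs of members the median Pearson r was 0.02, with 5th and 95th percentiles of -0.27 and 0.32, and over all pairs of tested models it was 0.01, with -0.28 and 0.31. No pair of members had an r above 0.7, where 0.00863% of all pairs of tested models did. The highest were 0.67 between Aqu2.1.05491_001 and Aqu2.1.28088_001 and 0.67 between Aqu2.1.05491_001 and Aqu2.1.25608_001. The points share library and depth, and genes are not independent replicates.

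Aqu2.1.05491_001 had 0.816 to 102 CPM (median 78.8) in constant light at 9 hpe, 0 to 220 CPM (median 9.68) in constant dark, and 1.25 to 57.3 CPM (median 10.2) in day-night. The values at 1 hpe were 12.4 to 102 CPM (median 38.3) in constant light, 0.705 to 28.9 CPM (median 5.69) in constant dark, and 9.33 to 186 CPM (median 52.2) in day-night. Its median was low in constant dark at both ages, and the groups overlapped. Aqu2.1.28088_001 had constant-light medians of 108 CPM at 9 hpe and 70.0 CPM at 1 hpe, constant-dark medians of 70.9 and 69.0 CPM, and day-night medians of 50.1 and 105 CPM. In constant-dark larvae at 9 hpe, replicate 1 was the highest for both models, with 220 CPM and 225 CPM.

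Aqu2.1.25608_001 was the member called in opposite directions with age in constant dark and in day-night. The rule used both age changes, so these calls are a description only. In constant light it had 34.8 to 179 CPM (median 129) at 9 hpe and 27.4 to 129 CPM (median 50.8) at 1 hpe. In constant dark it had 4.24 to 337 CPM (median 61.9) at 9 hpe and 1.06 to 37.96 CPM (median 20.4) at 1 hpe, and it was the 1 member called higher there. In day-night it had 5.82 to 73.0 CPM (median 20.9) at 9 hpe and 34.95 to 128 CPM (median 89.2) at 1 hpe, and it was among the 44 called lower. Between constant light and constant dark it differed by -0.16 ± 0.59 SE at 9 hpe (edgeR adjusted p = 0.947) and by 1.56 ± 0.61 SE at 1 hpe (edgeR adjusted p = 0.285). The next identifier number down, Aqu2.1.25607_001, was also a member and was taken up here for that reason. It had constant-light medians of 335 CPM at 9 hpe and 340 CPM at 1 hpe, constant-dark medians of 220 and 279 CPM, and day-night medians of 143 and 454 CPM. Its day-night larvae ran from 57.6 to 227 CPM at 9 hpe and from 229 to 613 CPM at 1 hpe, without overlap.

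Nearby identifier numbers occurred in 5 pairs of members at a distance of 5 or less, 2 of them consecutive. The deviations of Aqu2.1.25607_001 and Aqu2.1.25608_001 correlated with an r of 0.42, and those of the other consecutive pair, Aqu2.1.44315_001 and Aqu2.1.44316_001, with an r of 0.49. The other 3 pairs were Aqu2.1.40973_001 and Aqu2.1.40976_001 with an r of 0.60, Aqu2.1.40933_001 and Aqu2.1.40937_001 with 0.46, and Aqu2.1.41849_001 and Aqu2.1.41852_001 with -0.31. Those outside the naming rule are listed for this count alone. Over all 7934 pairs of tested models with consecutive numbers the median r was 0.10 and the 95th percentile 0.60. No file used here states that numbers follow the genome, and near-identical copies can share 3' reads.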

How the data were processed

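The authors deposited raw counts per transcript model and larva, per the file headers, with spike-in and bacterial features left out, per the file name. Libraries were CEL-Seq2 libraries of single larvae, per the labels' protocols. No aligner, counter, build or annotation is given in the sources used here. A second, normalized table was not used. The highest count in the table was 8192 and the highest of a member 5023.

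Members followed the rule stated in the report, and they and all comparisons were chosen with earlier results of these data known. Members are named by a rule: at most 2 each for lowest day-night age change, highest mean CPM, largest distance of day-night from the constant regimes at each age, calls between constant light and constant dark, most correlated pairs, and widest gap between ages. Models named beyond it are marked.

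All 43 larvae were fitted in edgeR 4.0.16 (R 4.3.3) with TMM, filterByExpr by group at a minimum count of 10 (14188 models, all 92 members), 6 group means and robust quasi-likelihood dispersions. P-values were adjusted by the Benjamini-Hochberg method over all tested models, with a threshold of 0.05. The fit was checked on simulated data. Alternatives were DESeq2 1.42.0, limma 3.58.1 voom, other scalings and filters, and subsets of larvae. Total counts per larva (median 2869317) limit the precision.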

Additional observations from a re-analysis of the deposited data

Results flagged for a closer look

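Each of the 11 members named by rule was examined in each of 6 groups for a larva far from the others of its group (Dixon's test at 95%). Of these 66 groups, 6 held one, or 9.09%. The test's rate of about 1 in 20 holds for normally distributed values. Here it was run on CPM of members picked partly for extreme values, so the share cannot be compared with that rate. All 6 were the highest larva of their group. Aqu2.1.05491_001 had 3 of them. It stood at 220 CPM in constant-dark replicate 1 at 9 hpe, with the next larva at 24.7 CPM. It stood at 57.3 CPM in day-night replicate 6 at 9 hpe, with the next at 27.1 CPM, and at 28.9 CPM in constant-dark replicate 2 at 1 hpe, with the next at 12.8 CPM. Aqu2.1.41885_001 stood at 37.6 CPM in constant-light replicate 6 at 1 hpe, with the next larva at 2.35 CPM. Aqu2.1.28793_001 stood at 386 CPM in day-night replicate 3 at 1 hpe, with the next at 303 CPM. Aqu2.1.40875_001 stood at 91.4 CPM in day-night replicate 4 at 1 hpe, with the next at 68.5 CPM.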

How the results depend on the processing

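The number of members was 97 with TMM effective library sizes, 99 with DESeq2 size factors, 88 with group means in place of medians, 71 with 5 CPM added and 104 without the 8 larvae apart on the second component. Of the original 92, these lists held 54, 52, 43, 65 and 71. With group means 55 of the 92 had a day-night age change of -0.8 or lower, 2 turned positive and the highest was 1.41. With 5 CPM added 65 had -0.8 or lower. On the TMM scale all 92 did, while 81 stayed above -0.4 in constant light and 63 in constant dark. Of 55 recomputed day-night age changes of the 11 named members, 0 changed sign. For 2 of the settings this was fixed in advance. The 8 larvae held no day-night larva, and adding 5 CPM cannot turn the sign of a ratio of medians. With group means Aqu2.1.41885_001 had -1.80 in place of -4.04, Aqu2.1.07497_001 -0.17 in place of -2.77 and Aqu2.1.00752_001 -1.34 in place of -3.02.

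Of 82 counts recomputed, 68 stayed within 1.5 times. The 68 include counts that were 0 under every setting, as with age in constant light and between constant light and constant dark at both ages. They also include the sizes of the member lists, which shared only 43 to 71 of the original 92 members. The 68 thus overstate how stable the calls were. With no filter on low counts, 5 members were called with age in constant dark, 2 between constant dark and day-night at 9 hpe, 1 between constant light and day-night at 1 hpe, and 6 for the difference in age change between constant light and day-night. Without the 8 larvae these were 4 with age in constant dark, 7 between constant light and day-night at 9 hpe, 5 for the difference in age change of constant light from day-night, and 1 for that of constant dark. DESeq2 called 9 and 2 members between constant light or constant dark and day-night at 1 hpe, and 23 for the difference in age change of constant light. Limma voom called 2 between constant dark and day-night at 9 hpe. Causes were not tested.

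With the replicate number as a block, 3 members were called between constant dark and day-night at 9 hpe and 7 for the difference in age change between constant light and day-night. Same-numbered larvae correlated between -0.17 and 0.23 in their deviations from group means, and at most 1 of 7 pairs per comparison of groups exceeded 0.1. Larvae with different numbers were not correlated for comparison, so these values cannot decide whether the numbers pair the larvae.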
